A study of Penicillium oxalicum with 24 samples.

Results

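The transcriptome of wild-type *Penicillium oxalicum* 114-2 on cellulose was compared with that of the same strain without carbon source, which asks what the polymer adds to the effect of losing glucose. The comparison used 6 of the 24 RNA-seq libraries of the series, chosen by their labels as 3 of wild type on cellulose and 3 of wild type without carbon source. Mycelia of the cellulose group were grown on glucose for 22 h in Vogel's medium, stood for 2 h without carbon source and were then given 2% cellulose, a microcrystalline powder, for 4 h. Mycelia of the no-carbon group had the same 22 h on glucose and then 4 h without carbon source. The labels of the no-carbon group list no separate 2 h step, whereas the methods of the study give that step to all cultures, so the total time without glucose may differ between the groups. The strain carries no engineered deletion in either group. A further 3 wild-type libraries, given 2% glucose for 4 h after the 2 h step, are quoted as a level without a test. The remaining libraries, from mutants on cellulose, served only in the filter of genes, the scaling and the estimate of the spread between replicates. The glucose libraries entered these steps too.

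Cellulose is too large to enter a hypha, so fungi of this kind secrete enzymes that cut it outside the cell. Endoglucanases cut inside the chains, cellobiohydrolases release cellobiose from the chain ends, copper-dependent monooxygenases break crystalline stretches, and beta-glucosidases split cellobiose into glucose. In plant walls cellulose is wrapped in xylan and mannan, and xylanases, beta-xylosidases and a series of side-chain enzymes take those polymers apart. Cellodextrin transporters carry the short products into the cell. The zinc cluster activators ClrB and XlnR switch on many of these genes, whereas CreA represses them when glucose is plentiful.

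The cellulose libraries held 7649998 ± 111613 uniquely mapped reads on genes and the no-carbon libraries 7815662 ± 379474 (SD, n = 3 each). Levels are given as RPKM, reads per kilobase of coding length scaled to the library's total of reads on genes, so that they can be set side by side between genes. Replicates of a group correlated at 0.983 or above across genes on the log2(RPKM + 1) scale, and no 2 libraries agreed within sampling noise. The study calls the 3 libraries of a condition biological replicates and says nothing further here of how separate the cultures were. The p-values and standard errors rest on the spread between replicate libraries in all 8 groups of the series, mutants included. A gene that varied in other groups can therefore have a wide standard error although these 6 libraries lie close within each group. The wild-type label was checked on the genes deleted in the mutants of the series. Of these, *clrB* had 1954, 1930 and 2009 reads on cellulose, against 1337, 1201 and 1279 reads without carbon source, and *creA* and *amyR* were likewise read in all 6 libraries (levels below).

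Of 9176 genes tested, 277 (3.02%) were called higher on cellulose and 479 (5.22%) lower, 756 (8.24%) in all. A gene was called when edgeR's quasi-likelihood test gave an adjusted p (Benjamini-Hochberg, over all genes tested) under 0.05 and the log2 fold change, cellulose over no carbon source, exceeded 1 in size. The fewer increases were the larger changes, with 46 genes above a log2 fold change of 3 and 25 genes below -3. Of those 46 genes, 35 were on the gene lists for wall degradation, sugar uptake and metabolism described below. On cellulose 127 of the 277 increased genes averaged at least 100 RPKM, and without carbon source 90 of the 479 decreased genes did. The split depends on the scale, since with library totals in place of TMM the median of all genes moved to -0.18, against 0.002, and 200 genes were called higher and 741 lower (21.3% of calls higher, against 36.6%). RNA came from whole mycelium, so that a larger share of hyphae with a transcript and more of it per hypha cannot be told apart.

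The gene lists were drawn up with earlier results of these libraries known, and their members were named from the study's tables, which hold mostly genes selected on the same samples. No list is therefore independent evidence of a direction, and each is described by its counts and its median beside the background of 3.02% and 5.22% and the median of 0.002 over all genes.

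**Figure D1:**
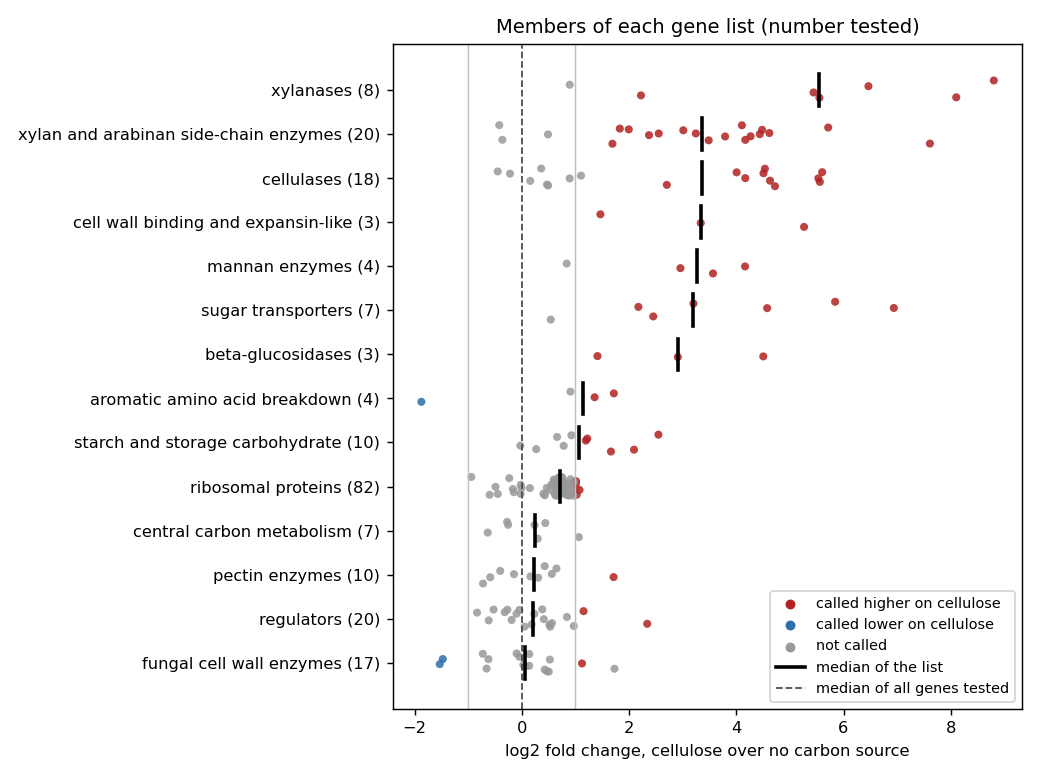
Log2 fold change, cellulose over no carbon source, of each tested member of the 14 gene lists, with 1 point per gene, black bars at list medians and a dashed line at the median of all genes tested. Points of the xylanases, side-chain enzymes, cellulases and sugar transporters lie mostly to the right of 2, whereas those of the ribosomal proteins crowd between 0 and 1; 1 xylanase at the detection floor in both groups is not drawn.

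The largest responses to cellulose were those of xylanases, which cut the backbone of xylan. Of 8 genes annotated as endo-beta-1,4-xylanases in the study's tables, selected mostly on these samples, 6 were called higher. None was called lower by edgeR, DESeq2 or limma (0 lower at an unadjusted p under 0.05). The median log2 fold change was 5.55 without PDE_00014, which was at the detection floor in both groups. The gene *xyn1* (PDE_08094) had 3320.2, 3661 and 2352 RPKM on cellulose, against 7.67, 7.55 and 8.55 RPKM without carbon source, a log2 fold change of 8.80 (SE 0.37, adjusted p = 5.6e-13). Its glucose libraries averaged 8.04 ± 2.88 RPKM (SD, n = 3), so that the no-carbon level was close to the glucose level. PDE_04478 was the most abundant xylanase transcript, with 11959, 10626 and 8959 RPKM on cellulose, against 46.3, 38.2 and 45.7 RPKM without carbon source, and its log2 fold change was 8.10 (SE 0.33, adjusted p = 4.0e-13). On cellulose this single gene stood above every cellulase. PDE_03573 had 417, 446 and 374 RPKM on cellulose, against 6.14, 5.62 and 4.06 RPKM without carbon source, a log2 fold change of 6.46 (SE 0.22, adjusted p = 3.6e-14). PDE_02101 and PDE_00752 followed with log2 fold changes of 5.55 (SE 0.26) and 5.44 (SE 0.28). PDE_02418 changed least among the 6, with 44.2, 43.8 and 51.1 RPKM on cellulose, against 12.3, 11.1 and 10.2 RPKM without carbon source. In none of the 6 did a cellulose library come near a no-carbon library, the narrowest gap being 3.55-fold. PDE_02682 was not called, at a log2 fold change of 0.89 (SE 0.18, adjusted p = 0.0014), although its 3 cellulose libraries lay above the 3 others, as was so for 27.9% of all genes tested, and without no-carbon replicate 1 it passed at 1.04. PDE_00014 had no read on cellulose and 0.0763, 0.0836 and 0.0819 RPKM without carbon source, so no fold change is given.

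**Figure D2:**
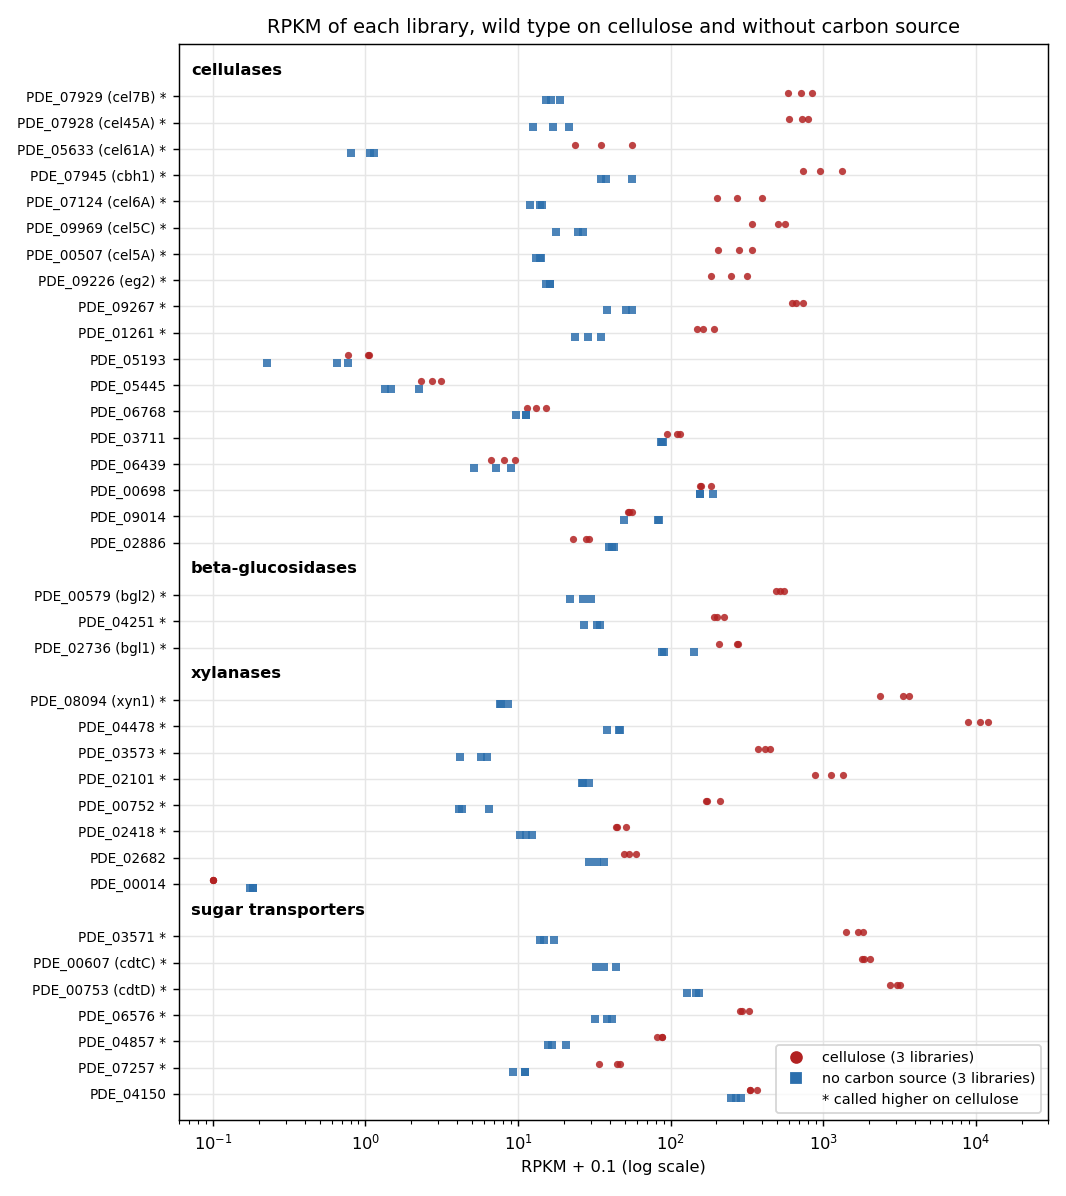
RPKM of each library on a log scale (0.1 added) for the members of 4 gene lists, red circles for the 3 cellulose libraries and blue squares for the 3 libraries without carbon source. The called genes, marked with an asterisk, show no overlap between red and blue points. The spread within a colour is small beside the gap except in *bgl1*. Its blue points span 87.7 to 143 RPKM and its lowest red point is at 209 RPKM.

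Most listed enzymes that strip side chains from xylan and arabinan were higher on cellulose. Of the 20, 17 were called higher and 0 lower (0 lower at an unadjusted p under 0.05, and 0 by DESeq2 or limma). Their median log2 fold change was 3.37. All 20 come from the study's tables, selected mostly on these samples, so the list need not be the whole family. The putative exo-arabinanase PDE_08038, which would release arabinose units from arabinan ends, had 574, 588 and 398 RPKM on cellulose, against 2.27, 3.35 and 3.49 RPKM without carbon source. Its log2 fold change of 7.61 (SE 0.30, adjusted p = 3.3e-13) was the third largest among the named genes with reads in both groups. The acetyl xylan esterase PDE_04182, which would remove acetyl groups from xylan, was the most abundant of the list, with 1189.6, 1233 and 1380.2 RPKM on cellulose, against 24.8, 27.2 and 30.5 RPKM without carbon source, a log2 fold change of 5.71 (SE 0.27, adjusted p = 1.9e-12). The feruloyl esterase PDE_06649, of a class that frees ferulic acid from xylan, had 757, 803 and 784 RPKM on cellulose, against 42.6, 59.5 and 53.7 RPKM without carbon source, a log2 fold change of 4.10 (SE 0.39, adjusted p = 1.8e-07). The alpha-glucuronidase PDE_03572, which would take glucuronic acid from xylan, had 107, 102 and 97.8 RPKM on cellulose, against 4.17, 5 and 5.06 RPKM without carbon source. Its log2 fold change of 4.62 had an SE of 0.18. The 6 listed genes annotated as beta-xylosidases, which split short xylan pieces into xylose, were all called, under the same limit of selection. Their log2 fold changes ran between 1.99 (SE 0.25) for PDE_09710 and 4.48 (SE 0.32) for PDE_08037. The 3 members that were not called were another feruloyl esterase, PDE_08238 (-0.42, SE 0.31), the arabinofuranosidase PDE_07585 (-0.36, SE 0.30) and the alpha-xylosidase PDE_03010 (0.49, SE 0.25). PDE_06067, an arabinofuranosidase, differed from the rest of the list in its glucose level, which averaged 151 ± 10.02 RPKM (SD, n = 3), above its 70.8, 62.9 and 71.1 RPKM without carbon source and below its 279.7, 316 and 341 RPKM on cellulose.

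Among the 18 predicted cellulases, 10 were called higher and 0 lower (1 lower at an unadjusted p under 0.05, and 0 by DESeq2 or limma), with a median log2 fold change of 3.36. Both main cellobiohydrolases were among the 10. The gene *cbh1* (PDE_07945) had 1323, 950.1 and 734 RPKM on cellulose, against 55.7, 35.2 and 37.7 RPKM without carbon source, a log2 fold change of 4.72 (SE 0.39, adjusted p = 2.8e-08). PDE_07124, for the cellobiohydrolase Cel6A that works from the other chain end, had 398, 273 and 202 RPKM on cellulose, against 13.9, 11.9 and 14.3 RPKM without carbon source, a log2 fold change of 4.63 (SE 0.39, adjusted p = 2.8e-08). In both genes cellulose replicate 1 was highest and replicate 3 lowest. The endoglucanase Cel7B gene (PDE_07929) had 850.5, 719 and 585 RPKM on cellulose, against 18.8, 16.4 and 15.1 RPKM without carbon source, a log2 fold change of 5.60 (SE 0.27, adjusted p = 2.6e-12). Its neighbour PDE_07928, for the endoglucanase Cel45A, had 790.1, 729.9 and 596 RPKM on cellulose, against 21.4, 16.8 and 12.5 RPKM without carbon source. The endoglucanase gene *eg2* (PDE_09226) had 315, 249 and 184 RPKM on cellulose, against 16.1, 15.2 and 16 RPKM without carbon source. The narrowest gap between a cellulose and a no-carbon library among the 10 called cellulases was 4.24-fold.

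Monooxygenases and the remaining endoglucanases divided within the cellulase list. The monooxygenase Cel61A gene (PDE_05633) had 55.8, 23.4 and 34.7 RPKM on cellulose, against 0.97, 0.709 and 1.04 RPKM without carbon source, a log2 fold change of 5.53 (SE 0.49, adjusted p = 6.1e-08). Its level in cellulose replicate 1 was 2.38-fold that in replicate 2, the widest spread among the 10 called cellulases. The putative monooxygenase PDE_01261 rose less, with 193, 162 and 148 RPKM on cellulose, against 35, 28.8 and 23.5 RPKM without carbon source. A further putative monooxygenase, PDE_00698, had 155, 183 and 157 RPKM on cellulose, against 189, 157 and 156 RPKM without carbon source, and the groups overlapped. Its glucose libraries averaged 12.7 ± 2.95 RPKM (SD, n = 3). The 8 cellulases that were not called had log2 fold changes between -0.45 and 1.10 and a smallest adjusted p of 0.0607 by edgeR. PDE_02886, an endoglucanase with a match to xyloglucan-specific enzymes, had the lowest of these values, with 22.7, 29.1 and 27.9 RPKM on cellulose, against 39.6, 41.3 and 42.7 RPKM without carbon source.

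The spread among cellulose libraries was shared within a gene list. Of the 10 called cellulases, 8 were highest in cellulose replicate 1 and 9 lowest in replicate 3. The cellulase list took 0.801%, 0.697% and 0.547% of the reads in cellulose replicates 1, 2 and 3, against 0.0779%, 0.0746% and 0.0724% without carbon source. Glucose libraries averaged 0.0606% ± 0.00587 (SD, n = 3), so that the summed share without carbon source was near that on glucose. The cellulose share stood apart from both. The members differed, since each of the 10 called cellulases averaged a higher RPKM without carbon source than on glucose. In *cbh1* the means were 42.9 and 8.61 RPKM, whereas PDE_03711, which was not called, averaged 87.7 RPKM without carbon source and 196 RPKM on glucose. Xylanases took 1.38%, 1.33% and 1.02% of reads on cellulose, against 0.0124%, 0.0110% and 0.0114% without carbon source. Sugar transporters, in contrast, were at 1.08%, 1.21% and 1.24% on cellulose, with the lowest share in replicate 1, against 0.0878%, 0.0875% and 0.0824% without carbon source. All 6 called transporters were lowest in that library.

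**Figure D3:**
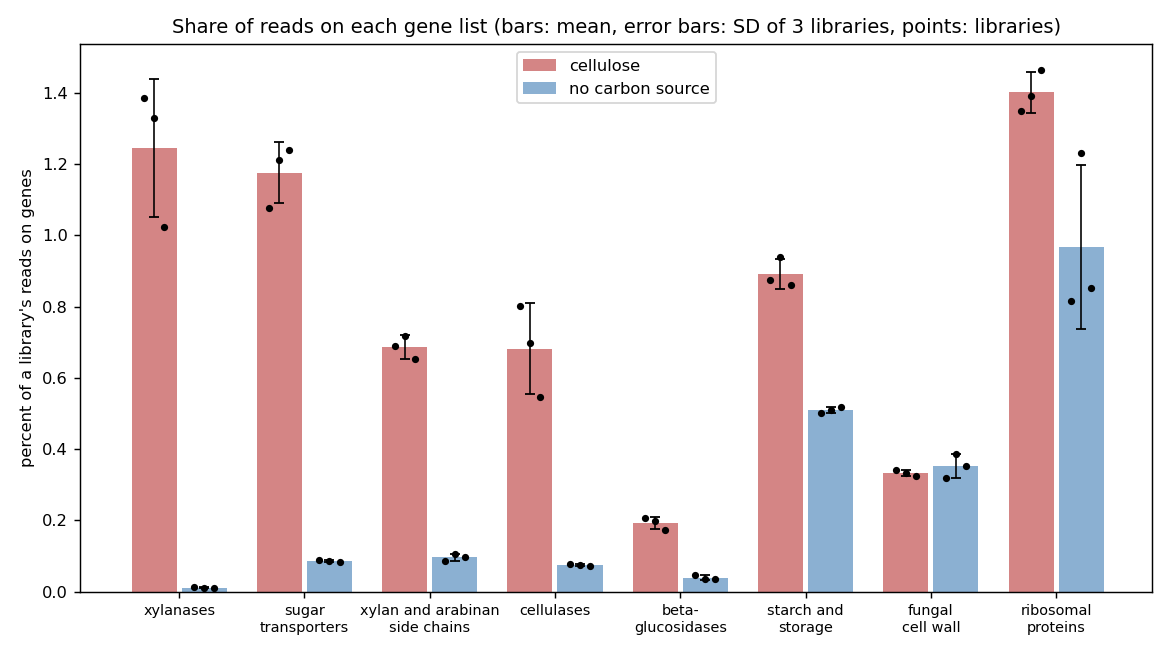
Percent of a library's reads on 8 gene lists, with bars at the mean, error bars of 1 SD and points for the 3 libraries of each group, cellulose in red beside no carbon source in blue. Xylanases and sugar transporters each took more than 1% of reads in every cellulose library and less than 0.1% in every library without carbon source, whereas the fungal cell wall enzymes overlapped.

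The 3 beta-glucosidase genes listed, which the study's tables hold because they changed on these samples, were called higher by very different amounts. The list is not the whole family. PDE_04859, which the study also counts as a beta-glucosidase, had 93.4, 86.2 and 96.8 RPKM on cellulose, against 61.3, 69.6 and 60.9 RPKM without carbon source, and was not called, at a log2 fold change of 0.71 (SE 0.17, adjusted p = 0.0048). The gene *bgl2* (PDE_00579), for an intracellular enzyme, had 551, 521 and 493 RPKM on cellulose, against 26.4, 30.2 and 21.9 RPKM without carbon source, a log2 fold change of 4.50 (SE 0.22, adjusted p = 2.6e-12). PDE_04251 had 223, 202 and 194 RPKM on cellulose, against 26.8, 32.6 and 34.6 RPKM without carbon source, a log2 fold change of 2.91 (SE 0.26, adjusted p = 6.5e-08). The gene *bgl1* (PDE_02736), for the main secreted enzyme, had 277, 274 and 209 RPKM on cellulose, against 143, 87.7 and 91.1 RPKM without carbon source, a log2 fold change of 1.41 (SE 0.29, adjusted p = 0.0013). It differed from *bgl2* in its levels off cellulose. Without carbon source *bgl1* was above *bgl2* in every library, whereas on glucose it averaged 3 ± 0.333 RPKM (SD, n = 3) and *bgl2* 18.8 ± 0.918 RPKM.

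Sugar transporters rose to levels in the range of the main hydrolases. Of 7 listed, 6 were called higher and 0 lower (0 at an unadjusted p under 0.05, and 0 by DESeq2 or limma), with a median log2 fold change of 3.20. The cellodextrin transporter gene *cdtD* (PDE_00753) had 2747, 3169 and 3045 RPKM on cellulose, against 129, 146 and 153 RPKM without carbon source, a log2 fold change of 4.58 (SE 0.20, adjusted p = 9.6e-13). The gene *cdtC* (PDE_00607), for a second transporter of this kind, had 1812, 1854 and 2023 RPKM on cellulose, against 36.3, 44.1 and 32.3 RPKM without carbon source, a log2 fold change of 5.84 (SE 0.25, adjusted p = 7.8e-13). On glucose they averaged 10.02 ± 0.845 and 6.04 ± 1.92 RPKM (SD, n = 3). PDE_03571, matched to alpha-glucoside permeases, rose most of the list, with 1404, 1705 and 1833 RPKM on cellulose, against 14.8, 17.1 and 13.9 RPKM without carbon source and a log2 fold change of 6.94 (SE 0.29, adjusted p = 5.6e-13). The maltose permease PDE_06576, the monosaccharide transporter PDE_04857 and the cellodextrin transporter PDE_07257 had log2 fold changes of 3.20 (SE 0.25), 2.45 (SE 0.24) and 2.17 (SE 0.19). PDE_04150, with the same permease match as PDE_03571, was not called, at 331, 333 and 371 RPKM on cellulose, against 288, 268 and 249.6 RPKM without carbon source. A membrane protein outside the lists, PDE_08035, whose annotation names transporter activity, had 1417, 2087 and 2024 RPKM on cellulose, against 85.3, 106 and 110.2 RPKM without carbon source, a log2 fold change of 4.39 (SE 0.31, adjusted p = 1.6e-09). It was chosen after its values were seen, for its place in the locus run described below.

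Genes for mannan breakdown and for proteins that loosen or bind walls also rose. Of 4 mannan genes, 3 were called higher, with log2 fold changes of 4.16 (SE 0.31) for the beta-mannosidase PDE_05998, 3.57 (SE 0.22) for the mannanase PDE_06023 and 2.96 (SE 0.28) for the alpha-galactosidase PDE_02514. The mannanase PDE_06438 was not called, with 11.2, 16.6 and 8.22 RPKM on cellulose, against 9.65, 8.43 and 4.71 RPKM without carbon source, groups that overlap. The putative swollenin PDE_02102, an expansin-like protein thought to open cellulose fibres, had 1254, 1082 and 908 RPKM on cellulose, against 28.4, 45.4 and 23 RPKM without carbon source, a log2 fold change of 5.26 (SE 0.36, adjusted p = 1.1e-09). The carbohydrate acetylesterases PDE_05342 and PDE_05194, grouped with it, had log2 fold changes of 3.34 (SE 0.33) and 1.47 (SE 0.43), and the call of PDE_05194 was lost without no-carbon replicate 2 (1.34) or 3 (1.41) or cellulose replicate 1 (1.40).

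The enzymes that take xylose into metabolism were higher as well. They were picked after their values were seen, by their matches to the fungal pentose pathway, and are given as values and not as a group result. The D-xylose reductase PDE_02929, which turns xylose into xylitol, had 1264, 1482 and 1280.3 RPKM on cellulose, against 241, 268 and 282 RPKM without carbon source, a log2 fold change of 2.54 (SE 0.15, adjusted p = 8.0e-11). The D-xylulose reductase PDE_05826, which oxidises xylitol, had 212, 232 and 192 RPKM on cellulose, against 85.8, 101 and 76.1 RPKM without carbon source, a log2 fold change of 1.46 (SE 0.24, adjusted p = 1.8e-04). The xylulokinase PDE_09158, which adds the phosphate that leads into the pentose phosphate pathway, had 52.4, 62.8 and 52.7 RPKM on cellulose, against 25.7, 27.6 and 28.1 RPKM without carbon source, a log2 fold change of 1.23 (SE 0.13, adjusted p = 1.5e-06). The cellulose and no-carbon libraries did not overlap in any of these genes, as was so for 27.9% of all genes tested with cellulose above.

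Most transcripts of regulators were not called, as was so for all genes tested, of which 8.24% were called in either direction. Of 20 transcription factors and chromatin proteins listed, 2 were called higher (1 by limma and 1 with library totals) and 18 were not called. None was called lower (3 lower at an unadjusted p under 0.05, and 0 by DESeq2 or limma), and the median log2 fold change was 0.21. The gene *clrB* (PDE_05999), for the main cellulase activator, had 108, 107 and 114 RPKM on cellulose, against 69.2, 68.1 and 71.1 RPKM without carbon source. Its log2 fold change of 0.84 (SE 0.18, adjusted p = 0.0018) was under the limit of 1. All 3 cellulose libraries were higher, as was so for 27.9% of all genes tested. The related gene *clrB-2* (PDE_05883) had 16.2, 16.7 and 15.5 RPKM on cellulose, against 4.03, 3.65 and 3.14 RPKM without carbon source, a log2 fold change of 2.34 (SE 0.18, adjusted p = 9.8e-09). It was the only listed regulator with a change above 2 and its level on cellulose stayed below that of *clrB*. The gene *xlnR* (PDE_07674), for the xylanase activator, had 43.9, 54 and 47.7 RPKM on cellulose, against 24.1, 24.4 and 26 RPKM without carbon source, a log2 fold change of 1.15 (SE 0.22, adjusted p = 9.0e-04) that missed the limit with library totals (0.97). The repressor gene *creA* (PDE_03168) had 371, 313 and 307 RPKM on cellulose, against 234, 288 and 269.7 RPKM without carbon source, a log2 fold change of 0.52 (SE 0.16, adjusted p = 0.025) that was not called. The amylase activator gene *amyR* (PDE_03964) was at 214, 210.4 and 209 RPKM on cellulose, against 219, 266 and 209 RPKM without carbon source, and the groups overlapped. On glucose *clrB*, *xlnR* and *amyR* averaged 10.8 ± 0.971, 9.18 ± 0.587 and 35.3 ± 2.32 RPKM (SD, n = 3 each), below their levels without carbon source. The glucose mean of *clrB-2* was 7.23 ± 1.26 RPKM, above its level without carbon source and below its level on cellulose.

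**Figure D4:**
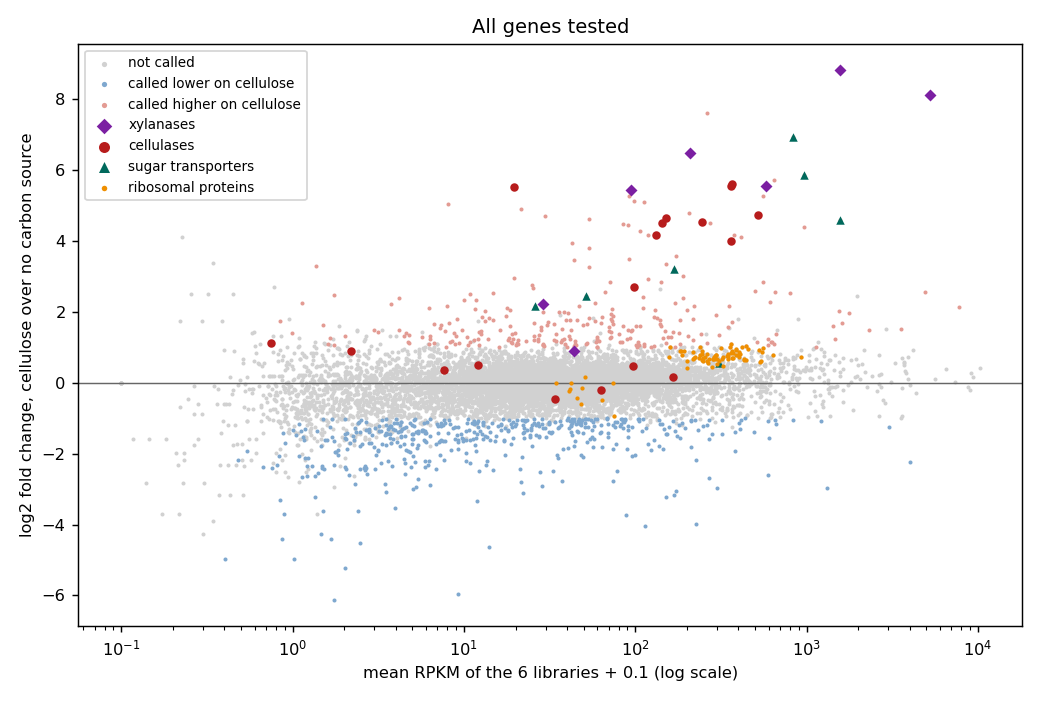
Log2 fold change, cellulose over no carbon source, against the mean RPKM of the 6 libraries (log scale, 0.1 added), with 1 point per gene tested and 4 gene lists drawn larger. Xylanases and sugar transporters lie at the upper right, with high levels and large increases, whereas the large decreases lie mostly at lower levels.

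Starch enzymes rose in part although no starch was given. Of 10 genes for starch and storage carbohydrate, 5 were called higher (4 by limma and 4 with library totals). None was called lower (0 at an unadjusted p under 0.05, and 0 by DESeq2 or limma), and the median log2 fold change was 1.06. The starch-binding protein gene PDE_01354 had 1099, 1236 and 971 RPKM on cellulose, against 239.7, 203 and 198 RPKM without carbon source, a log2 fold change of 2.55 (SE 0.33, adjusted p = 1.3e-05). The alpha-glucosidase PDE_03966 had 169, 194 and 162 RPKM on cellulose, against 48.2, 49.5 and 41.7 RPKM without carbon source, and its glucose libraries averaged 138 ± 10.8 RPKM (SD, n = 3), close to the cellulose level. The glucoamylase PDE_05527, which releases glucose from starch ends, had a log2 fold change of 1.66 (SE 0.20). The main glucoamylase gene *gluA* (PDE_09417) was high in both groups and was not called, with 1324, 1332 and 1283 RPKM on cellulose, against 979.9, 884 and 968 RPKM without carbon source. The alpha-amylase PDE_01201 rose by a log2 fold change of 1.19 (SE 0.39, adjusted p = 0.029). That call was lost without no-carbon replicate 2 (1.11) or 3 (1.13) or cellulose replicate 1 (1.09) or 2 (1.17). It was also lost with library totals and with limma on either log2 scale (1.01 in each).

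Enzymes for pectin and for the fungal wall did not follow the plant wall enzymes. Of 10 tested pectin genes out of 11, 1 was called higher and 0 lower (1 lower at an unadjusted p under 0.05, and 0 by DESeq2 or limma), with a median log2 fold change of 0.23. The called gene, the alpha-rhamnosidase PDE_06451, had 50.1, 42.7 and 44.6 RPKM on cellulose, against 20.8, 13.6 and 12.8 RPKM without carbon source. Of 17 genes that remodel or break the fungal wall, 1 was called higher and 2 lower, beside 8.24% of all genes called in either direction, with a median of 0.07 that turned to -0.12 with library totals. The chitinase PDE_09532 rose, with 69.8, 69.5 and 65.8 RPKM on cellulose, against 38.7, 31.1 and 36.8 RPKM without carbon source, although its log2 fold change of 1.12 missed the limit with library totals (0.94). Another chitinase, PDE_01573, fell, with 10.5, 13.9 and 12.9 RPKM on cellulose, against 23.1, 58.3 and 38.3 RPKM without carbon source, as did the exo-glucosaminidase PDE_01280 (-1.53 (SE 0.36, adjusted p = 0.0043)). The chitosanase PDE_08733 had 43.6, 5.19 and 5.3 RPKM on cellulose, against 13.9, 1.86 and 2.25 RPKM without carbon source, so that replicate 1 was the highest library within each group, and it was not called.

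The listed genes of central metabolism were not called, beside 8.24% of all genes tested called in either direction, so few calls would mark so short a list. Of 7 genes for the glyoxylate cycle, gluconeogenesis and linked steps, edgeR called 0 (1 higher and 1 lower at an unadjusted p under 0.05, and 0 by DESeq2 or limma), with a median log2 fold change of 0.24. Phosphoenolpyruvate carboxykinase (PDE_08878), the entry to gluconeogenesis, had 1594, 1523 and 1747 RPKM on cellulose, against 1351, 1454 and 1706 RPKM without carbon source, and 95.3 ± 7.16 RPKM on glucose (SD, n = 3). Malate synthase (PDE_03483) had 542, 423 and 515 RPKM on cellulose, against 636, 755 and 619 RPKM without carbon source. Malic enzyme (PDE_04142) had the largest change of the list, with 176, 177 and 194 RPKM on cellulose, against 99.2, 96.4 and 102 RPKM without carbon source. Its log2 fold change of 1.06 (SE 0.54, edgeR adjusted p = 0.16) passed the limit on size only. Its 3 cellulose libraries lay above the 3 others, as was so for 27.9% of all genes tested. Pyruvate dehydrogenase E1 alpha (PDE_02440), which feeds the citrate cycle, missed only the limit on size, at 0.44 (SE 0.14, adjusted p = 0.028). Of 4 genes for breakdown of aromatic amino acids, 2 were called higher (0 by limma) and 1 lower, with a median log2 fold change of 1.13. The 4-hydroxyphenylpyruvate dioxygenase step has 2 listed genes. The more abundant, PDE_09761, had 2772, 2754 and 2586 RPKM on cellulose, against 2366, 1117 and 1346 RPKM without carbon source, and was not called, at a log2 fold change of 0.91 (SE 0.34, adjusted p = 0.06). Without no-carbon replicate 1, the highest of its group, the value was 1.37 and it was called. The other, PDE_08904, fell, with 13.9, 14.7 and 15.4 RPKM on cellulose, against 68.5, 59.3 and 54.6 RPKM without carbon source, a log2 fold change of -1.87 (SE 0.24, adjusted p = 9.2e-06). Fumarylacetoacetase (PDE_08907), a later step, had 1086, 142 and 411 RPKM on cellulose, against 213, 194 and 161 RPKM without carbon source. Its neighbour PDE_08906, homogentisate dioxygenase, had 654, 105 and 248 RPKM on cellulose, against 172, 142 and 133 RPKM without carbon source. Both were called higher while the groups overlapped, and cellulose replicate 1 was far above the other libraries. Without that library the log2 fold changes were 0.40 for PDE_08906 and 0.70 for PDE_08907 and neither was called. The call of PDE_08906 was also lost without no-carbon replicate 2 (1.29) or 3 (1.26), and that of PDE_08907 without no-carbon replicate 3 (1.60).

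The listed ribosomal protein genes leaned upward on cellulose by small amounts. All 82 come from the study's tables. The study reports ribosomal genes among those lower in its *amyR* mutant than in wild type on cellulose. Members may thus have entered the list through high values in these cellulose libraries. The counts below therefore describe the list and are no result about ribosomal protein genes in general. Of 82 genes matched to ribosomal proteins in the study's tables, 4 were called higher and 0 lower (4 lower at an unadjusted p under 0.05, 1 higher and 0 lower by DESeq2, and 0 higher and 1 lower by limma), and the median log2 fold change was 0.72. In 71 genes every cellulose library was above every no-carbon library, a pattern seen in 27.9% of all genes tested, and in 5 genes every one was below (25.6% of all genes). With library totals 0 were called higher and 1 lower, and the median was 0.52. The largest value was that of the S10e gene PDE_08216, with 473, 480.0 and 465 RPKM on cellulose, against 235, 319.5 and 212 RPKM without carbon source, and 2204 ± 159 RPKM on glucose (SD, n = 3). Without no-carbon replicate 3 its log2 fold change was 0.95, against 1.08 with all libraries, and it was not called. The list took 1.35%, 1.39% and 1.46% of reads on cellulose, against 0.816%, 1.23% and 0.852% without carbon source and a mean of 7.70% on glucose. No-carbon replicate 2 was thus nearer the cellulose libraries than the other 2 were, and both groups lay far below glucose.

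Several of the most abundant induced transcripts lay outside the gene lists. PDE_09832, a hypothetical protein that the study places in sporulation, had 10348, 12104 and 14428 RPKM on cellulose, against 2280.4, 2727 and 4592 RPKM without carbon source, a log2 fold change of 2.13 (SE 0.36, adjusted p = 2.7e-04). PDE_06062, for which no annotation was found in the study's tables, had 9193, 7789 and 7683 RPKM on cellulose, against 2001, 1142 and 1585 RPKM without carbon source, a log2 fold change of 2.55 (SE 0.33, adjusted p = 1.3e-05). Its glucose libraries averaged 9163 ± 637 RPKM (SD, n = 3), close to the cellulose level. PDE_00021, annotated as a structural constituent of the cell wall, had 3095, 3367 and 3431 RPKM on cellulose, against 1099.5, 1729 and 1213 RPKM without carbon source. The putative metalloendopeptidase PDE_07936 had 3588, 1368 and 2216 RPKM on cellulose, against 391.6, 1132 and 522 RPKM without carbon source, with a wide spread in both groups. PDE_06607 had 2005, 5541 and 657 RPKM on cellulose, against 501, 962 and 974 RPKM without carbon source, and was called although the groups overlapped. Without cellulose replicate 2 its log2 fold change was 0.93, against 1.96 with all libraries, and the call was also lost without any of the no-carbon replicates (1.74 to 2.10). The call of PDE_07936 (2.03) was lost without cellulose replicate 1 (1.59) or no-carbon replicate 1 (1.78) or 3 (1.86).

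Transcripts that fell on cellulose were mostly unannotated: 97 of the 479 had an annotation in the study's tables, against 195 of the 277 that rose, and those tables were selected on these samples. The most abundant of them was the putative cutinase PDE_07475, an enzyme class that cleaves the plant cuticle polymer. It had 1349, 1211 and 1202 RPKM on cellulose, against 6103, 8929 and 5295 RPKM without carbon source, a log2 fold change of -2.24 (SE 0.26, adjusted p = 3.1e-06), and averaged 17.1 ± 3.88 RPKM on glucose (SD, n = 3). PDE_03294 had 1689, 1859 and 1365 RPKM on cellulose, against 4479, 4787 and 3964 RPKM without carbon source, a log2 fold change of -1.24 (SE 0.21, adjusted p = 3.1e-04), and averaged 5.09 ± 2.28 RPKM on glucose. The membrane transport protein PDE_05653 had 523, 706 and 889 RPKM on cellulose, against 1179, 2148 and 1859.9 RPKM without carbon source, and 2.32 ± 0.631 RPKM on glucose. The call of PDE_05653 (-1.10) was lost without no-carbon replicate 2 (-0.94) or cellulose replicate 1 (-0.93). In mean level all 3 genes were high without carbon source, lower on cellulose and lowest on glucose. Among the largest decreases, PDE_06126 had 9.9, 16 and 9.16 RPKM on cellulose, against 286, 167 and 199 RPKM without carbon source, a log2 fold change of -4.04 (SE 0.38, adjusted p = 1.9e-07). PDE_06813 had 24.2, 28.7 and 20.3 RPKM on cellulose, against 679, 363 and 243 RPKM without carbon source, a log2 fold change of -3.98 (SE 0.47, adjusted p = 4.2e-06). In 37 of the 479 decreases every cellulose library had at most 3 reads, and in 2 of the 277 increases every no-carbon library did. Of the first kind, PDE_04272 had 1, 0 and 0 reads on cellulose, against 64, 17 and 21 reads without carbon source. Its summed reads without carbon source were 87.8-fold those on cellulose after TMM scaling (95% exact interval 15.4 to 3503, counting error only). Without no-carbon replicate 1, which held most of those reads, the ratio was 48.7, and without cellulose replicate 2 or 3 it was 58.5 or 58.4. Of the second kind, PDE_02652 had 11, 6 and 5 reads on cellulose, against 0, 3 and 2 reads without carbon source, a ratio of 5.11 (95% exact interval 1.89 to 17.3). With 1 library left out that ratio ran between 3.43 (without no-carbon replicate 1) and 8.48 (without no-carbon replicate 2). The call of PDE_02652 was lost without no-carbon replicate 1 (1.71) or 3 (2.38) or cellulose replicate 1 (1.83) or 2 (2.37).

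Changed genes often stood beside each other. Of the genes called higher, 97 (35.0%) had a neighbouring locus called higher, and of those called lower 113 (23.6%) had a neighbour called lower. Of all genes tested, 514 (5.60%) had a neighbour called higher and 909 (9.91%) a neighbour called lower. Locus order was taken from the locus numbers, and where one contig ends was not known here. Among 59 list genes called higher outside the ribosomal proteins, 14 were next to another, forming 8 pairs. PDE_03571, PDE_03572 and PDE_03573, a permease, an alpha-glucuronidase and a xylanase, formed one such block with log2 fold changes of 6.94, 4.62 and 6.46. The xylanase PDE_00752 lay beside *cdtD*, and the xylanase PDE_02101 beside the swollenin PDE_02102. The endoglucanase genes PDE_07928 and PDE_07929 were also neighbours, with log2 fold changes of 5.56 and 5.60.

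Longer stretches, built from windows of 6 tested genes with at least 4 called the same way and trimmed to their outermost called genes, numbered 8 for increases and 6 for decreases. All 6 genes from PDE_08034 to PDE_08039 were called higher. This stretch holds the beta-xylosidases PDE_08036 and PDE_08037 and the exo-arabinanase PDE_08038, and its outer members PDE_08034 and PDE_08039 had log2 fold changes of 4.91 (SE 0.27) and 1.43 (SE 0.17). From PDE_03924 to PDE_03930, 6 of 7 genes were called higher. The largest change there was that of PDE_03927, a membrane protein annotated with stress response, at 172, 188 and 212 RPKM on cellulose, against 4.96, 7.15 and 6.72 RPKM without carbon source. The acyltransferase PDE_03930 had 13.3, 16.6 and 16.4 RPKM on cellulose, against 0.165, 0.452 and 0.974 RPKM without carbon source, whereas PDE_03925 inside the stretch was not called (-0.24, SE 0.14). The 4 genes from PDE_07671 to PDE_07674, which ends in *xlnR*, were all called, and PDE_07671 changed most of them (2.68 (SE 0.21, adjusted p = 1.3e-08)). The stretches PDE_00789 to PDE_00802 and PDE_00802 to PDE_00811 share a gene, and 10 of 14 and 7 of 10 genes in them were called higher. PDE_00797, annotated with alkaloid metabolism, had the largest change of the first, with 103, 125 and 119 RPKM on cellulose, against 25.9, 32.8 and 35 RPKM without carbon source. A further stretch, PDE_01064 to PDE_01070, held 5 called genes of 7 with PDE_01066, matched to a cyclic dipeptide prenyltransferase, at 126, 132 and 128 RPKM on cellulose, against 48.7, 60.2 and 49 RPKM without carbon source. Some calls at the ends of stretches rested on single libraries. PDE_03924 was not called when any 1 library was left out (1.36 to 1.84), PDE_01064 not without no-carbon replicate 1 (0.87), and PDE_01070 only with all libraries or without cellulose replicate 1. PDE_03930 moved to 5.77, against 5.03, without no-carbon replicate 3.

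Stretches of decrease were found as well. Most of their genes had no annotation, as was so for the whole deposited table (1057 of 9832 genes annotated). From PDE_09194 to PDE_09202, 7 of 9 genes were called lower. The O-methyltransferase PDE_09196 had 235, 343 and 217 RPKM on cellulose, against 2074, 1583 and 3398 RPKM without carbon source, a log2 fold change of -2.96 (SE 0.54, adjusted p = 5.3e-04). PDE_09199, matched to cytochrome P450 monooxygenases, had 52, 76 and 52.5 RPKM on cellulose, against 521, 391 and 694 RPKM without carbon source. PDE_09202 had the largest change of the stretch, -3.72 (SE 0.48, adjusted p = 1.3e-05). No library of the groups overlapped in these 3 genes, as was so for 25.6% of all genes tested with cellulose below. All 5 genes from PDE_04271 to PDE_04275 were called lower, including PDE_04272 with 1 read on cellulose. The stretch PDE_01119 to PDE_01138 held 8 called genes of 10, and PDE_01119, matched to a nucleotide phosphatase, had 24.3, 29.2 and 23.2 RPKM on cellulose, against 191, 316 and 324 RPKM without carbon source. From PDE_09228 to PDE_09240, 8 of 10 genes were called lower. PDE_09236 there had 0.738, 3.22 and 1.77 RPKM on cellulose, against 35.8, 3.54 and 25.8 RPKM without carbon source, so that no-carbon replicate 2 was close to cellulose replicate 2. Without no-carbon replicate 1 its log2 fold change was -2.70 and without cellulose replicate 2 it was -3.94, against -3.34 with all libraries. PDE_04275 was at -0.59 and not called without no-carbon replicate 1, nor was it called without any 1 of the cellulose replicates (-1.96 to -1.44), and PDE_01138 lost its call without no-carbon replicate 2 or 3 or cellulose replicate 2 or 3 (-1.34 to -1.27).

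**Figure D5:**
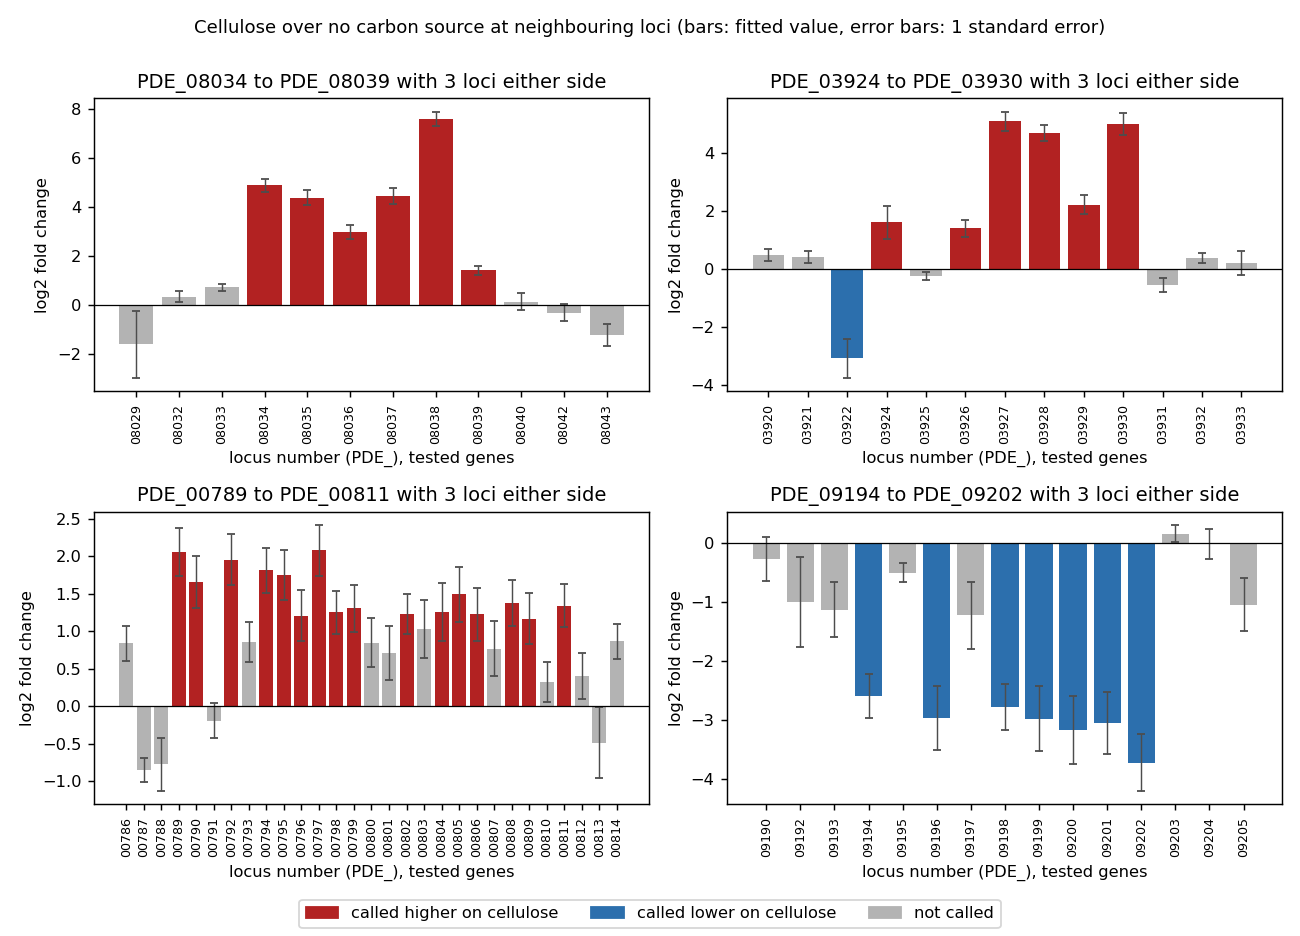
Fitted log2 fold change, cellulose over no carbon source, of tested genes in locus order at 4 stretches with 3 tested neighbours on either side, with error bars of 1 standard error. Called genes, red for higher and blue for lower, fill the stretches, whereas the flanking genes are mostly grey.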

How the data were processed

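RNA of mycelia was sequenced by the authors on an Illumina platform (CASAVA 1.8 in the submitters' processing notes) and mapped with SOAP2 against transcripts predicted from the 114-2 genome. The deposited table of 9832 genes gives, per library, unnormalized counts of reads with a unique hit, the RPKM made by the authors from those counts, and the percent of each coding sequence covered, which was not used. Gene lengths in it are coding lengths (99.97% are multiples of 3). A dash was read as no reads, and 0 per-sample columns were left unassigned. Deposited comparisons of the authors were not used. No sequence is printed, since no genome of this strain was used here, and gene roles are those of the study's tables (1057 genes annotated).

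Counts were tested with edgeR 4.0.16 in R 4.3.3. The test kept genes that reached an RPKM of 1 in 3 or more of 24 samples. After TMM scaling, 1 quasi-likelihood model with 8 group means was fitted to the 24 samples, since 3 libraries per group estimate the spread poorly. Replicates varied by 19.9% (common dispersion 0.0395). Standard errors are the log2 fold change divided by the square root of the F statistic. RPKM means carry the SD of 3 libraries. Overlap of groups was judged on TMM-scaled counts. Tables were made with Python 3.11.15, pandas 2.3.3 and numpy 2.4.6, and the fit was tested on simulated counts. Alternatives were median-ratio scaling, library totals, no filter, DESeq2 1.42.0, limma 3.58.1 on log2(RPKM + 1) and log2(RPKM + 0.1), a fit of the 6 libraries alone, the replicate number as a block, and fits that each omitted 1 library.

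The comparison, the gene lists and the rule for naming genes were chosen with earlier results of these data known. The rule takes members of the cellulase, beta-glucosidase, xylanase, mannan and transporter lists and 6 regulators, the 3 highest, 3 lowest and 2 most abundant members of the other lists, the 10 largest changes and 10 most abundant called genes in each direction, the stretches of neighbouring loci and the 3 largest bounds against 3 reads. Genes named beside it, such as PDE_04859 and those of the pentose pathway and further members of the side-chain list, of the locus stretches and of the closing observations, were chosen after their values were seen.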

Additional observations from a re-analysis of the deposited data

How the results depend on the processing

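Of the genes that the text names with a test, 116 were followed through the alternatives, and 96 of these were called. The malic enzyme gene PDE_04142 was not among those followed. Of the 96 called genes, 76 kept direction and call under all 15 alternatives, and none of the 96 changed direction in any of them. Counts of calls moved more. With limma on log2(RPKM + 1) 183 genes were called higher, and with library totals 741 were called lower, against 277 and 479. These settings also moved the median of all genes, to -0.17 and -0.18. DESeq2 called 269 higher and 508 lower. Leaving out 1 library gave 244 to 296 higher and 394 to 467 lower, the lowest counts being those without no-carbon replicate 3 and without cellulose replicate 3. Among genes that were not called, PDE_00698 had a log2 fold change of -0.0198 with library totals, -0.0178 with limma on log2(RPKM + 1) and -0.0179 with limma on log2(RPKM + 0.1), *amyR* (PDE_03964) turned to -0.13 in the same 3 settings and, with 1 library left out, ran between -0.027 (without no-carbon replicate 3) and 0.13 (without no-carbon replicate 2), and PDE_08733 between -0.082 (without cellulose replicate 1) and 3.37 (without no-carbon replicate 1). With the replicate number as a block, 272 genes were called higher and 466 lower, or 292 and 530 in the fit of the 6 libraries, which also called PDE_08733 (1.66, edgeR adjusted p = 0.0018). Same-numbered libraries deviated together at correlations of 0.26, -0.06 and 0.24. Differently numbered ones ran between -0.38 and 0.27, the latter for cellulose replicate 3 with no-carbon replicate 2, so the numbers were not taken as pairs. Depth limits the genes with few reads: 37 decreases and 2 increases were called with at most 3 reads in every library of the lower group.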

Other observations

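Genes with matches to melanin and phenol metabolism, on none of the lists and chosen after their values were seen, were also higher on cellulose. The scytalone dehydratase PDE_04496, a melanin pathway enzyme in other ascomycetes, had 181, 204 and 228 RPKM on cellulose, against 42.8, 72.3 and 54.1 RPKM without carbon source, a log2 fold change of 2.05 (SE 0.36, adjusted p = 3.6e-04). Its neighbour PDE_04495, matched to a ketoacyl reductase, had 455, 449 and 450.4 RPKM on cellulose, against 109.7, 184 and 119 RPKM without carbon source, a log2 fold change of 1.91 (SE 0.37, adjusted p = 9.1e-04). The tyrosinase PDE_04260, which oxidises phenols, had 133, 141 and 134 RPKM on cellulose, against 45.5, 58.5 and 61.1 RPKM without carbon source, a log2 fold change of 1.50 (SE 0.30, adjusted p = 0.0012). The groups did not overlap in these genes, as was so for 27.9% of all genes tested with cellulose above.

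A further 3 genes matched to enzymes that act on aromatic compounds were called higher with a wide spread between libraries, again chosen after their values were seen and with no list behind them. The catechol 1,2-dioxygenase PDE_05239, which opens the ring of catechol, had 195, 43.5 and 91.5 RPKM on cellulose, against 55.1, 23.1 and 32.2 RPKM without carbon source, a log2 fold change of 1.75 (SE 0.44, adjusted p = 0.0069). The 3-hydroxyphenylacetate 6-hydroxylase PDE_04228 had 523, 32.6 and 179 RPKM on cellulose, against 52.7, 34.1 and 30.04 RPKM without carbon source, a log2 fold change of 2.83 (SE 0.61, adjusted p = 0.0022). The 2,3-dihydroxybenzoate decarboxylase PDE_02215 had 608, 108 and 224 RPKM on cellulose, against 123, 56.5 and 75.7 RPKM without carbon source, a log2 fold change of 2.05 (SE 0.53, adjusted p = 0.0077). On glucose the 3 genes averaged 8.94 ± 0.659, 4.6 ± 1.98 and 11.8 ± 0.767 RPKM (SD, n = 3 each). In each of these 3 genes cellulose replicate 1 was the highest library, and the lowest cellulose library lay below the highest no-carbon library. Without it the log2 fold changes were 1.01 for PDE_05239, 1.58 for PDE_04228 and 1.10 for PDE_02215, and PDE_04228 alone of them was still called. The homogentisate genes PDE_08906 and PDE_08907 described above were also highest in cellulose replicate 1.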
